A study of Bos taurus with 2 samples.

Results

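Mitochondrial ribosomal protein genes were followed here in RNA from 2 fractions of bovine milk whey. They were taken as every gene whose name on the array was MRPL or MRPS followed by a digit, control probes left out. This gave 75 genes of 15714 named on the array, 46 MRPL and 29 MRPS, on 143 of 33468 named probes. In 30 genes there was 1 probe, in 45 there were 2 or more, and the most for a gene was 5. The choice used gene names and no measured value.

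The first fraction, labelled exosome, was the pellet of Holstein raw milk whey spun at 10000 g for 90 min at 4 °C, resuspended in saline and spun again in 2 washes. The labels call this spin an ultracentrifugation, a word usual for much higher speeds, so whether the speed is written correctly is unsure. The second, labelled supernatant, was the whey left above that pellet. For each fraction, RNA of 3 milk samples was pooled, 100 ng was labelled with the dye Cy3, and the pool was hybridised to 1 Agilent bovine array, so there are no replicates. Nothing below is a test, no p-value is given, and each difference is between 2 arrays of pools. In such bulk RNA, fewer particles or cells carrying a transcript and less of the transcript in each cannot be told apart. The labels give no age of the cows and no count of vesicles or cells.

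Transcripts of the mammary secretory cell were present on both arrays. Of 12 marker genes of these cells, the caseins and other milk proteins among them, 12 were detected in the pellet and 11 in the supernatant. All 8 vesicle membrane markers, such as CD9, CD63 and TSG101, were detected in the pellet and 3 in the supernatant. Of 11 leukocyte markers, 7 and 6 were detected, and CD3E, ITGAM, MS4A1 and CXCR2 were detected on neither. Of all named genes, 69.4% were detected in the pellet and 22.9% in the supernatant. For markers well above background on both arrays, the median difference of log2 signal, exosome minus supernatant, was 10.68 for secretory cell markers. It was 5.99 for vesicle markers and 1.78 for leukocyte markers, against 3.51 over all named genes so measured. Marker levels do not say in which particles or cells the mitochondrial ribosomal protein transcripts lay, and that was not tested.

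The mitochondrial ribosome translates the few membrane proteins encoded in mitochondrial DNA, all of them subunits of the respiratory chain and ATP synthase. Its RNAs come from mitochondrial DNA, but its proteins are encoded in the nucleus, made by cytosolic ribosomes and imported. MRPL genes are named for the large subunit, which forms peptide bonds, and MRPS genes for the small subunit, which decodes the messenger. Many members have a counterpart in bacterial ribosomes and others were gained in mitochondria. The names are not a perfect guide: in mammals MRPS30 and MRPS18A sit in the large subunit, and MRPS36 is a component of the 2-oxoglutarate dehydrogenase complex.

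The array reads each gene with probes of 60 bases, and a few of these carry most of the findings below. The first set is shown because the probes of 1 gene disagree, or, for MRPS28, because its single probe goes against all others. Each is given 5′ to 3′, with runs of at least 4 C or 4 G in capitals.
MRPS28, its single probe, chromosome 14: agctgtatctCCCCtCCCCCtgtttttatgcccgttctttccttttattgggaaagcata
MRPS31, probe detected in supernatant: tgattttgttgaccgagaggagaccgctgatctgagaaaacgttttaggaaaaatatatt
MRPS31, probe 95 bases upstream: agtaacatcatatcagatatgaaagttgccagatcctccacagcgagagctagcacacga
MRPL52, expressed sequence tag: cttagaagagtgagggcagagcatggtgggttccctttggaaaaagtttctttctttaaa
MRPL52, RefSeq transcript: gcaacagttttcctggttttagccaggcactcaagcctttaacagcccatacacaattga
MRPL23, expressed sequence tag: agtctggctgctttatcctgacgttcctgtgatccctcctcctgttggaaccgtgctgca
MRPL23, RefSeq transcript: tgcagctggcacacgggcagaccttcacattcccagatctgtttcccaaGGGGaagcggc
MRPL41, later probe: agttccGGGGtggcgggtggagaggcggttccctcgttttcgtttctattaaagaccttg
MRPL41, earlier probe: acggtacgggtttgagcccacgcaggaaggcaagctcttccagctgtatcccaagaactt

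The second set holds overlapping probes, shown because they lie on nearly the same stretch of 1 transcript. The overlap is identical in the MRPL45 pair but not in the MRPL43 pair, whose probes also differ in sequence there. Capitals mark the longest run that both probes of a pair share.
MRPL45, earlier probe: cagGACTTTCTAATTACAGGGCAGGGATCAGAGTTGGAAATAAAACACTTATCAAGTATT
MRPL45, later probe: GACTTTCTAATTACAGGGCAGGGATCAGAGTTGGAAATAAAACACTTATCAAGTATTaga
MRPL43, earlier probe: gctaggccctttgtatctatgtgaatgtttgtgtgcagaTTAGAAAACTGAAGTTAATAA
MRPL43, later probe: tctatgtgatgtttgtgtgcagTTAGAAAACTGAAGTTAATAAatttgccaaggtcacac

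The members were detected throughout on the exosome array. A gene counted as detected where the scanner software called any of its probes well above background. All 75 members met this on the exosome array, where 69.4% of named genes did. On the supernatant array 19 of 75 did, or 25.3%, against 22.9% of all named genes. Among genes detected on the exosome array, 31.6% were also detected in the supernatant, so the members' share lay below that of genes with the same starting point and close to that of all genes. The remaining 56 members were detected in the exosome pellet alone, which held for 47.5% of named genes. No member was detected in the supernatant alone or on neither array.

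The large and small subunits were alike in these counts. All 46 MRPL and all 29 MRPS genes were detected on the exosome array. In the supernatant 11 MRPL genes (23.9%) and 8 MRPS genes (27.6%) were detected, a gap of a few genes. Split by origin, 12 of 48 genes with a bacterial counterpart and 7 of 27 particular to mitochondria were detected in the supernatant. Counting MRPS30 and MRPS18A with the large subunit and leaving out MRPS36 gave 12 of 48 against 6 of 26.

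**Figure D1:**
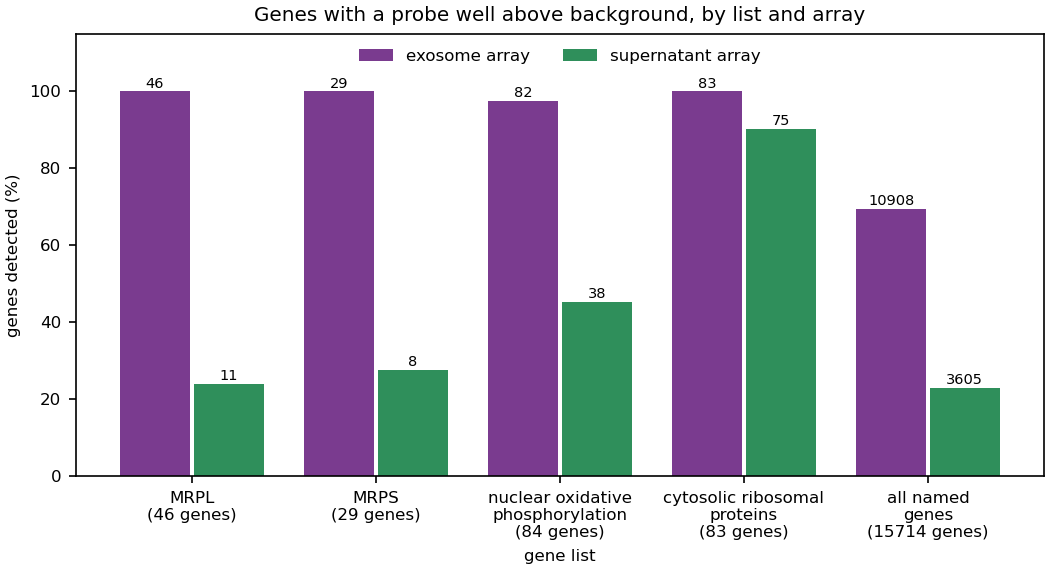
Share of genes with a probe well above background, in percent, on the exosome and supernatant arrays for each gene list, with the number of genes above each bar. All 46 MRPL and 29 MRPS genes were detected in the pellet, and 11 (23.9%) and 8 (27.6%) of them in the supernatant. These shares lay close to the 22.9% of all named genes and far under that of cytosolic ribosomal protein genes. The median exosome level of that list was 14.47, against 9.73 for the 75 members.

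The supernatant count depends on what is called detected. A weaker flag of the software, a signal positive and above background without the margin of the first, was met in the supernatant by 51 members (68.0%) and by 66.5% of named genes. Asking every probe of a gene to be well above background left 68 members on the exosome array, against 47.9% of named genes. In the supernatant it left 7 members, 2 MRPL and 5 MRPS, against 5.82% of named genes. The 7 were MRPL2, MRPL23, MRPS12, MRPS15, MRPS18A, MRPS18B and MRPS28, all of them genes with a bacterial counterpart.

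Signals of the members were bright in the pellet. In the supernatant they were dim, like those of named genes in general. A signal is the software's background-subtracted intensity, and a gene's level is the mean log2 signal over its probes. Probes differ in how well they hybridise, so a level describes the probes and does not rank genes by abundance. The median exosome level was 9.73 on the log2 scale, a signal of 849, for the 75 members. It was 5.07, a signal of 33.6, over all named genes and 6.69 over those detected on the exosome array. The median supernatant level was 1.76, a signal of 3.38, for the members and 1.54, a signal of 2.91, over all named genes. The 21 member probes detected in the supernatant had signals from 11.3 to 4901 with a median of 15.2, and 18 of the 21 lay under 25. The lowest signal that the software called well above background on that array was 8.75, taken below as its detection limit, so most detected members stood just over it. The count under 25 was not made over all named probes, so it is not shown to be particular to the members.

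MRPL and MRPS genes had nearly equal median levels in the pellet. The median was 9.74 for MRPL and 9.72 for MRPS, signals of 853 and 843, a difference of 0.016 on the log2 scale. The interquartile range ran from 8.41 to 10.67 for MRPL and from 7.54 to 10.85 for MRPS. Within a gene, the standard deviation over probes had a median of 0.98 in the 42 members with 2 or more detected probes.

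Members with a bacterial counterpart had a median level of 10.11, a signal of 1105, and those particular to mitochondria one of 8.69, a signal of 412. This is a gap of 1.42 on the log2 scale. Over detected probes only the medians were 10.26 and 9.08, and with the brightest probe of each gene 10.64 and 10.61, so the size of the gap changed with the choice of probes.

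**Figure D2:**
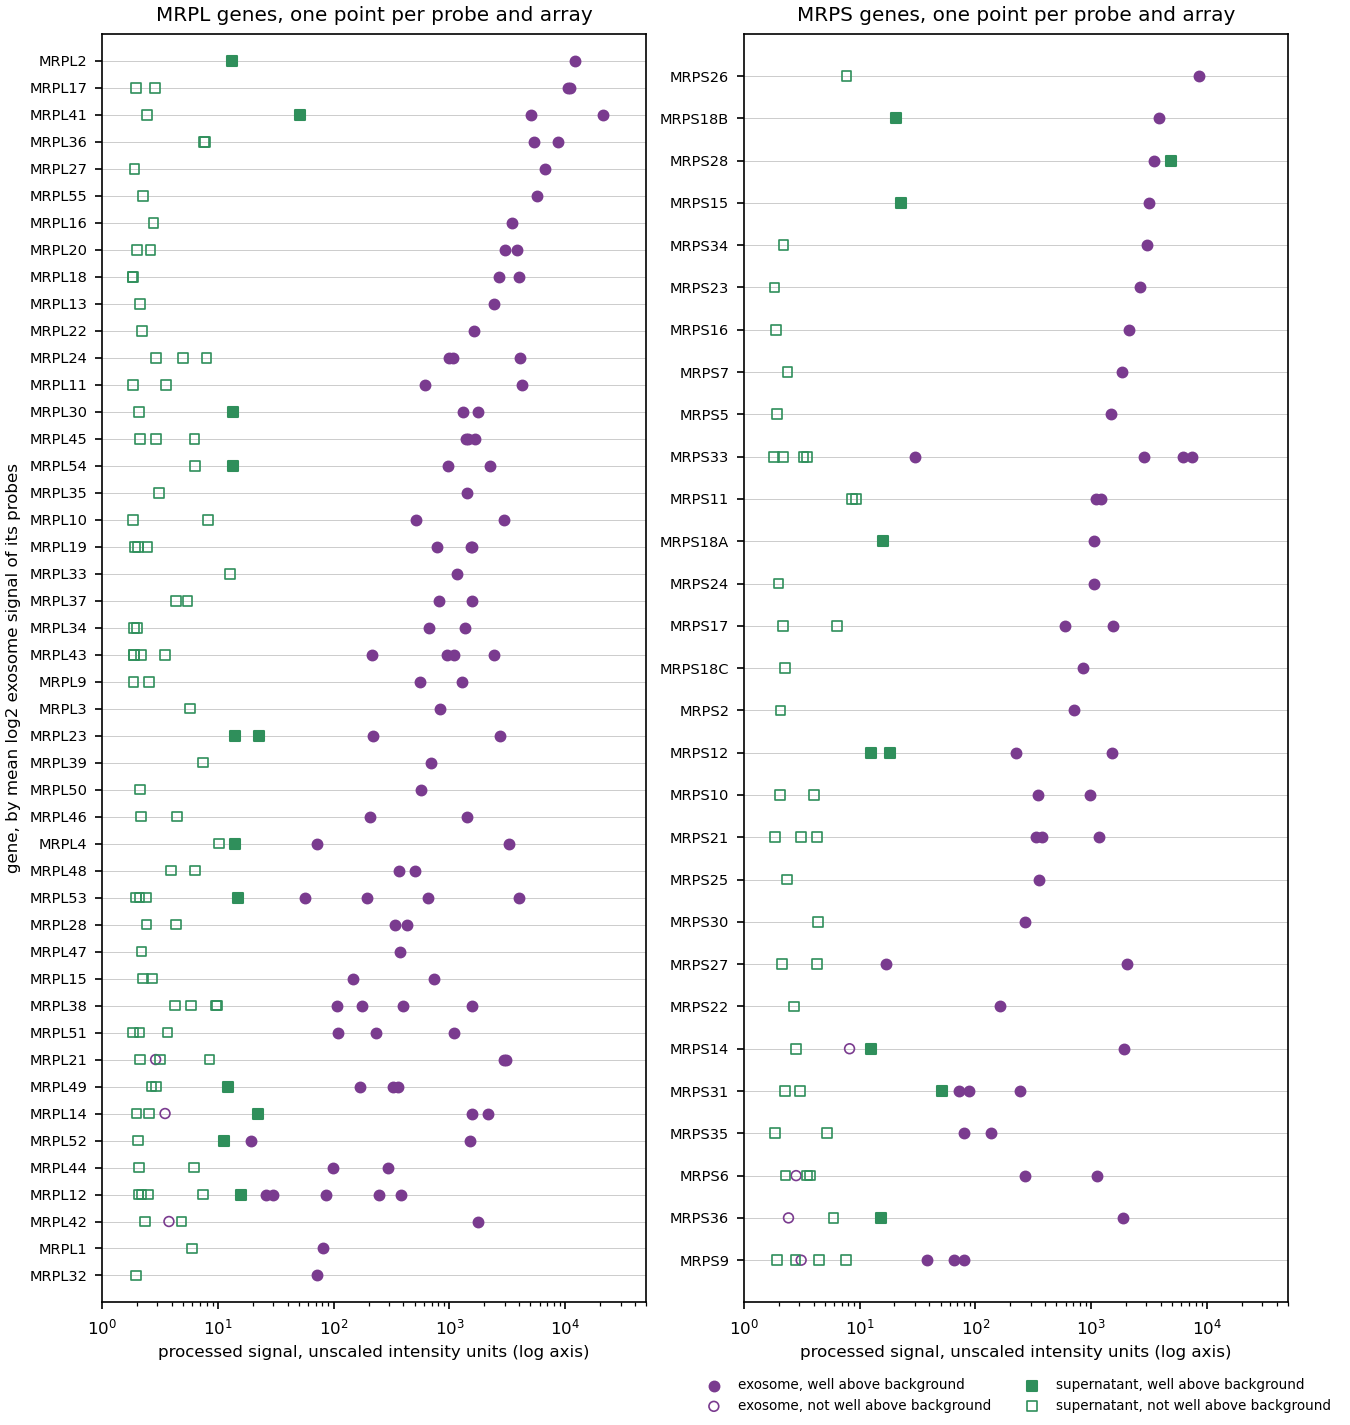
Processed signal of every probe of the 75 members on a log axis in intensity units, MRPL genes at left and MRPS genes at right, ordered by mean log2 exosome signal. Circles are exosome and squares supernatant, filled where well above background. The supernatant squares sit to the left of the exosome circles for almost every probe, and the filled MRPS28 square at 4901 is the one far to the right.

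The difference between the arrays could be measured for the 19 members with a probe well above background on both. It is given as exosome minus supernatant in log2 signal, first unscaled and then relative to the median of all 3377 named genes so measured. That median gene was 3.51 higher on the exosome array, or 11.4-fold. Unscaled, 18 of the 19 members were brighter on the exosome array, as were 93.4% of all measured genes. At least 2-fold to the exosome side of the median gene lay 14 of the 19, against 37.3% of measured genes. At least 2-fold to the supernatant side lay 4, against 36.6%, and 1 fell between.

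The median difference of the 19 was 6.95 unscaled and 3.44 relative to the median gene. For 11 MRPL genes the relative median was 3.50, and for 8 MRPS genes 3.00. Quantile normalization, which forces both arrays onto 1 distribution, was used in place of the median gene, which was then not subtracted. The median differences were 0.43 for MRPL, -0.062 for MRPS and 0.34 for all 19, so they are not values relative to the median gene. A floor at 4 times the lowest well-above-background signal left 3 genes with a median of -2.59 relative to the median gene. Of these, 2 were MRPS genes with a median of -3.23. The number of members on the exosome side depended on the reference: 18 unscaled, 16 with spike-in probes as the reference, 15 with the median gene and 12 with the 75th percentile of each array. Repeated spots of 11 other probes had a standard deviation of 0.198 in this difference, which covers spotting and reading only. No member probe was printed on more than 1 spot.

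Among large subunit genes with a bacterial counterpart that were measured on both arrays, MRPL2 had the widest difference. The protein of MRPL2 lies by the peptidyl transferase centre, and its probe read 12136 in the pellet and 13.2 in the supernatant. The difference was 9.84 unscaled and 6.34 relative to the median gene. MRPL4, whose protein lines the peptide exit tunnel, read 3290 and 13.96 on 1 probe, a relative difference of 4.38. Its other probe read 71.2 and 10.3 and was not detected in the supernatant. MRPL30 read 1752 and 13.6 on its detected probe, a relative difference of 3.50. MRPL14, a protein of the face that meets the small subunit, read 2165 and 22.2, a relative difference of 3.101. All 4 genes thus read above 1024 in the pellet and under 25 in the supernatant on the probe detected there.

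MRPL23, a protein at the exit of the peptide tunnel, was detected in both fractions by both of its probes. The RefSeq probe shown above read 2734 and 14.03, a relative difference of 4.10. The probe from an expressed sequence tag read 219 and 22.7, a relative difference of -0.23. The mean of both gave the gene 1.93, a value that neither probe showed. On build Btau_3.1 the tag's probe lies at chr29:51399472-51400094 in the plus direction, and the RefSeq probe at chr29:51396450-51399456 in the minus direction. Probes for opposite strands are therefore filed under this 1 name, and the gene's value is uncertain.

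MRPL12, the stalk protein that recruits translation factors and also binds the mitochondrial RNA polymerase, had 5 probes. Its exosome signals were 379, 245, 85.5, 29.9 and 25.8, all well above background. In the supernatant the same probes read 2.48, 2.06, 15.9, 7.43 and 2.19, and the third, on an Ensembl transcript, was the one detected. That probe alone gives the gene's difference of 2.42 unscaled and -1.08 relative to the median gene. On the deposited coordinates it lies at chr19:52598210-52598268, and the brightest probe at chr19:52607534-52607690. Whether both read the same gene was not tested. The detection of MRPL12 in the supernatant and its place on the supernatant side of the median gene are therefore uncertain. The brightest probe, on the RefSeq transcript, gave at least 43.3-fold more signal in the pellet. Here and below such a bound sets the exosome signal against the higher of the supernatant signal and the array's detection limit of 8.75. Some probes not detected in the supernatant read above 8.75, such as that of MRPL33 at 12.7. The bounds are therefore approximate.

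Large subunit proteins particular to mitochondria covered the whole range. MRPL41 was the brightest, at 21203 and 51.6 on its later probe, with a relative difference of 5.18. Its earlier probe read 5104 and 2.43 and was not detected in the supernatant, which gives at least 583-fold. MRPL53 read 4023 and 15.0 on the detected probe of 4, a relative difference of 4.56. Its other probes read 192, 56.7 and 655 in the pellet and were not detected in the supernatant. MRPL54 read 2224 and 13.5, a relative difference of 3.86, and its other probe read 970 and 6.31 and was not detected in the supernatant. MRPL49 read 169.5 and 12.3 on the detected probe of 3, a relative difference of 0.27. Its other probes read 324 and 362 in the pellet and 2.68 and 2.92 in the supernatant, so the dimmest of 3 probes was the one that crossed the limit.

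The probes of MRPL52 disagreed widely. The probe from an expressed sequence tag read 19.3 in the pellet and 11.3 in the supernatant, a difference of 0.77 unscaled and -2.73 relative to the median gene. The RefSeq probe read 1516 and 2.06, at least 173-fold more in the pellet. On the deposited coordinates the probes lie 3764 bases apart, at chr10:22281555-22281614 and chr10:22277731-22277790. The gene's place on the supernatant side of the median gene comes from the tag's probe only.

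Among small subunit genes with a bacterial counterpart, MRPS18B read 3883 and 20.5, a relative difference of 4.06. MRPS14 read 1902 and 12.7, a relative difference of 3.73, and MRPS15, a protein bound to the ribosomal RNA, read 3177 and 22.9, a relative difference of 3.61. MRPS12, which helps to shape the decoding centre, was detected by both probes, at 1508 and 12.4 and at 225 and 18.3. Its relative difference was 3.42 on the first and 0.12 on the second, with a mean of 1.77.

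The MRPS18 paralogues, which descend from 1 bacterial protein, each had 1 probe. MRPS18A read 1059 and 15.8, with a relative difference of 2.56, below that of MRPS18B. MRPS18C read 843 in the pellet and 2.25 in the supernatant, where it was not detected, which gives at least 96.3-fold. All 3 were on the exosome side.

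MRPS36, which despite its name serves the 2-oxoglutarate dehydrogenase complex, read 1873 and 15.2 on its RefSeq probe, a relative difference of 3.44. MRPS31, particular to mitochondria, had 3 RefSeq probes. They read 88.3, 71.5 and 244 in the pellet and 51.1, 3.06 and 2.28 in the supernatant. The first was the one detected in the supernatant, and it gave a difference of 0.79 unscaled and -2.72 relative to the median gene. The probe that starts 95 bases upstream of it on the same transcript gave at least 8.16-fold, and the third at least 27.9-fold. A supernatant signal of 51.1 was thus seen with 1 probe and not with its neighbours.

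MRPS28 was the exception among all members. Its single probe read 3495 in the pellet and 4901 in the supernatant, where the software's own error estimates were 350 and 490. The difference was -0.49 unscaled and -3.99 relative to the median gene. It was the only one of 21 member probes measured on both arrays that was brighter in the supernatant. The next highest supernatant signal of a member was 51.6. The unscaled difference exceeds the spread of repeated spots, but there is no second probe and no second array to set beside it.

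Probes that read brighter in the supernatant were few across the array but not rare. Among 4116 named probes measured on both arrays, 290 (7.05%) did, and 130 (3.16%) had a difference as low as that of MRPS28 or lower. A supernatant signal at least as high as its own was seen for 90 of 33468 named probes, 34 of them brighter in the supernatant. The probe lies at chr14:40190746-40190805 on build Btau_3.1 and holds a run of CCCC and one of CCCCC, as printed above.

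**Figure D3:**
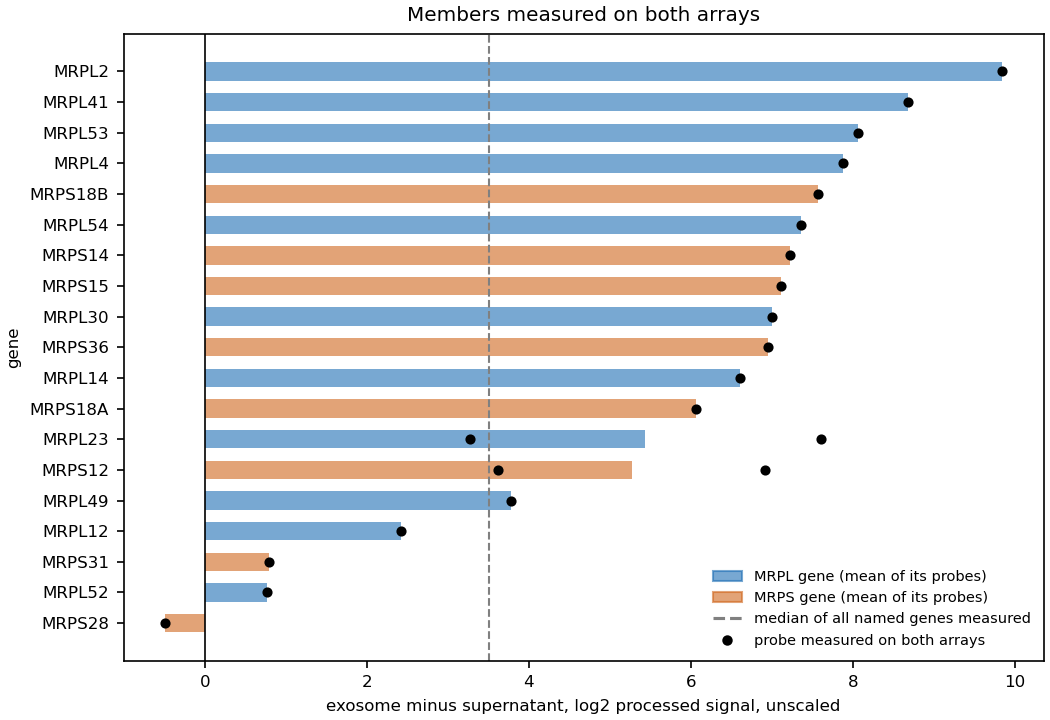
Exosome minus supernatant difference in log2 processed signal, unscaled, for the 19 members measured on both arrays. Bars are the mean of a gene's measured probes, dots the single probes, and the dashed line the median of all named genes measured, 3.51. MRPS28 is the one bar below 0, and both dots of MRPL23 and of MRPS12 lie far from their mean.

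Since the supernatant signals of members, MRPS28 aside, lay within a narrow band, the measured difference followed the exosome signal. The 6 measured probes with an exosome signal under 256 had unscaled differences from 0.77 to 3.78. The 14 with a signal of 1024 or more had differences from 6.07 to 9.84. No measured probe had a signal between these levels.

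Supernatant detection of members showed no steady rise over classes of exosome signal. Under 256, 6 of 32 member probes detected on the exosome array (18.8%) were detected in the supernatant, against 13.4% of named probes. From 256 to under 1024 it was 0 of 34, against 18.5%. From 1024 to under 4096 it was 13 of 57 (22.8%), against 27.4%. At 4096 or more it was 2 of 13 (15.4%), against 53.8%. Over all probes it was 15.4% of member probes and 19.7% of named probes. The top class has no upper limit, and its probes are not alike in brightness: the median signal was 7382 for member probes and 9897 for named probes, with highest signals of 21203 and 315266. With the weaker flag its shares were 61.5% and 79.7%.

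**Figure D4:**
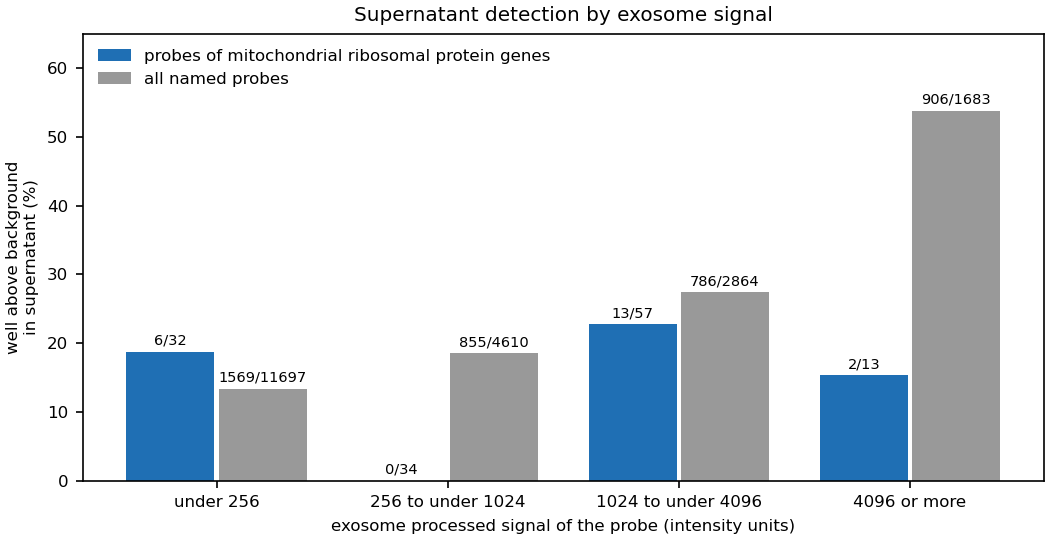
Share of probes detected on the exosome array that were also well above background on the supernatant array, in percent, by exosome signal in intensity units, for member probes and for all named probes, which include them. Counts stand above the bars. The share of all named probes climbs to 53.8% in the brightest class, while that of member probes is 15.4% there.

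For the 56 members detected in the pellet alone, only an approximate bound on the difference can be given. The bounds ran from 6.65-fold to 1222-fold with a median of 109-fold, against 14.4-fold over all named genes detected on the exosome array alone. The median was 128-fold for 35 MRPL genes and 96.3-fold for 21 MRPS genes. A bound of this kind grows with the exosome signal by its construction.

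The brightest of these was MRPL17, next to the peptide exit tunnel, with a mean signal of 10694 in the pellet and 2.37 in the supernatant, at least 1222-fold. Its probes agreed closely, at 10509 and 10883. MRPS26, particular to mitochondria, read 8503 and 7.71, at least 971-fold. MRPL36, one of the smallest ribosomal proteins, had a mean of 6807 and 7.69, at least 778-fold. MRPL27, whose bacterial counterpart reaches into the peptidyl transferase centre, read 6685 and 1.91, at least 764-fold. MRPL55 read 5648 and 2.27, at least 645-fold, and MRPL16 read 3471 and 2.78, at least 397-fold. In the supernatant all 6 were not well above background.

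The dimmest of these genes were MRPS9, MRPL32, MRPL1, MRPL42, MRPS6 and MRPS35. MRPS9 had a mean of 28.02 over 4 probes and a bound of 6.65-fold. MRPL32 read 71.3 with a bound of 8.14-fold, and MRPL1, the protein of the mobile stalk at the tRNA exit, read 81.2 with a bound of 9.27-fold. MRPS35 had a mean of 104 and a bound of 11.9-fold. MRPL42 and MRPS6 stand here only because undetected probes lower the mean. The detected probe of MRPL42 read 1774, and those of MRPS6 read 270 and 1132. MRPL3, a textbook protein of the large subunit core, read 832 and 5.75 with a bound of 95.0-fold, near the middle.

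Values and bounds together put 63 of the 75 members (84.0%) at least 2-fold to the exosome side of the median gene, against 38.3% of named genes detected on the exosome array. They were 40 of 46 MRPL and 23 of 29 MRPS genes. The median gene is that of the 3377 genes measured on both arrays, while most members enter through a bound that grows with exosome signal. Median exosome levels were 9.73 for members and 6.69 for named genes detected on that array. The 2 shares thus partly restate exosome brightness. Among the 56 pellet-only members 49 passed this level and 7 did not. The bounds of MRPS27, MRPL44, MRPS22 and MRPS35 lay 1.87, 1.72, 1.63 and 1.05 times above the median gene. They rest on a limit of 8.75 that some undetected probes exceed, so the margin of MRPS35 does not settle its side. The bounds of MRPS9, MRPL32 and MRPL1 were too low to say on which side of the median gene they lay.

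Detection in the pellet was also counted by the source of the probe, whose part in it was not tested. Of 143 member probes 136 (95.1%) were detected in the pellet, against 62.3% of named probes. All 125 probes on RefSeq transcripts were, against 65.3% of 27073 named RefSeq probes, and so were all 5 on Ensembl transcripts. Of the 13 other member probes, mostly expressed sequence tags, 6 were. Across the array 52.8% of 2196 such named probes were. The 7 undetected probes belong to MRPL14, MRPL21, MRPL42, MRPS14, MRPS36, MRPS6 and MRPS9, and each of these genes has at least 1 detected probe. In MRPL21, for example, RefSeq probes read 3065 and 2975 and the tag's probe 2.90.

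In 3 genes a probe lies on the opposite strand to the gene's other probes: MRPL14, MRPL23 and MRPS33. The opposite probe of MRPL14 read 3.50 on the exosome array, against 1567 and 2165. That of MRPS33 read 30.2, against 2876, 7382 and 6243. These probes were kept, as the rule takes all probes of a name, and they lower the mean level of their genes.

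Overlapping probes show how far signals differ between close probes. In 9 pairs the starts lay at most 30 bases apart, and the median absolute difference in log2 exosome signal was 0.24. In 59 pairs farther apart on the same transcript it was 1.47, and reached 6.91. The MRPL45 pair shown above shares 57 bases and read 1646 and 1393. The MRPL43 pair shares a run of 21 bases and read 2404 and 216, or 3.48 apart. Its overlap is not letter for letter the same, and what part sequence or placement had in the gap was not tested. The MRPL19 pair, whose overlap is not identical either, read 1552 and 1537. MRPL38 had a pair with an identical overlap of 37 bases that read 175 and 393. On 40 transcripts with 2 or more probes, the last probe was brighter than the first in 26 and dimmer in 14.

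Supernatant detection was also counted by the base composition of the probe. Among member probes detected on the exosome array, 20 of 136 hold CCCC on the printed strand. Of these 7 (35%) were detected in the supernatant, against 12.1% of those without. Over all named probes the shares were 40.9% and 15.9%. With CCCCC, 2 of 4 member probes were detected, and 52.4% of all named probes that hold it. With GGGGG it was 0 of 2 member probes, against 15.7% of those without, and over all named probes 49.9% against 18.8%. Probes of at least 50% G and C were detected in 32% of member cases and 35.0% of all cases, against 11.7% and 15.5% below that. The letters AATAAA, the usual polyadenylation signal, stood in 23 member probes (16.9%) and in 11.2% of all named probes detected on the exosome array. Longer runs include shorter ones, only the printed strand was searched, and the part of base composition in the detections was not tested.

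The members lay on 25 chromosomes, 9 of them on chromosome 11, and 6 had no probe on a numbered chromosome. MRPL46 and MRPS11 were the closest neighbours, with probes 13671 bases apart on chromosome 21 in opposite directions. MRPL46 had a mean of 542 and MRPS11 one of 1153 on the exosome array, and neither was detected in the supernatant.

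Other genes of mitochondrial translation were also detected mostly in the pellet. All 11 translation factors on the array were detected there and 0 in the supernatant, where 6 (54.5%) met the weaker flag. Their median exosome level was 7.69. For these and the lists that follow, the shares of all named genes were 69.4% in the pellet, 22.9% in the supernatant and 66.5% with the weaker flag there. TUFM, the elongation factor that delivers aminoacyl-tRNA, read 1658 and 3.35, and TSFM, its exchange factor, 627 and 2.50. Ribosomal proteins under other names were detected in the pellet in 7 of 7 cases and in the supernatant in 0, where all 7 met the weaker flag. ICT1, a peptidyl-tRNA hydrolase built into the large subunit, read 6252 and 3.69. DAP3, a GTP-binding protein of the small subunit, read 104 and 2.92.

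Of 20 genes for ribosome assembly and mitochondrial RNA, 19 were detected in the pellet and 2 in the supernatant, where 12 met the weaker flag. SLIRP, an RNA-binding partner of LRPPRC, was 8.04 higher in the pellet, unscaled, and TFB1M, the methyltransferase of the small ribosomal RNA, was 4.22 higher. TACO1, an activator of COX1 translation, was detected on neither array. SLIRP and TFB1M were the only genes of the 3 lists well above background in the supernatant.

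Larger groups with related roles are given for comparison. Of 83 cytosolic ribosomal protein genes, 83 were detected in the pellet and 75 in the supernatant, with a median exosome level of 14.47, a signal of 22645. All 75 measured were at least 2-fold to the exosome side of the median gene, with a relative median of 6.77. Of 84 nuclear genes of oxidative phosphorylation, whose products join the proteins that the mitochondrial ribosome makes, 82 and 38 were detected. Their median exosome level was 11.22, a signal of 2390, and 31 of 38 measured lay at least 2-fold to the exosome side, with a relative median of 4.65. For the 75 mitochondrial ribosomal protein genes the values were 9.73 and 3.44. The interquartile range of exosome levels was 8.30 to 10.67 for them and 9.73 to 12.88 for the oxidative phosphorylation genes, so these ranges overlapped. Levels read on different probes do not rank the groups by abundance. These lists were chosen for comparison with earlier results known, and the differences between them were not tested.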

How the data were processed

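RNA of 2 whey fractions was read on 1 array each, on the same slide. Per the file headers, Agilent Feature Extraction 10.7.3.1 made the deposited intensity values (processed signals): local background and spatial trend were removed per array, the arrays were not scaled to each other, and probes were placed on build HGSC Btau_3.1. The authors' deposited table holds log2 values that match the log2 of these signals within 0.001 for all 43652 probes (column medians 4.81 for exosome and 1.32 for supernatant). For further steps of the authors, the method is not given in the sources used here.

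Spots of control probes were dropped, as were 5 spots (exosome) and 2 spots (supernatant) that the software marked as outliers. Spots of a probe were averaged, and signals were put on a log2 scale. No spot was saturated. Differences were averaged over a gene's probes well above background on both arrays. The 75th percentile of the supernatant array, a signal of 5.24, lies under its lowest well-above-background signal of 8.75, so differences were set against the median gene instead. The number of arrays limits the precision.

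Genes named with values are all members measured on both arrays, the 6 brightest and 6 dimmest detected in the pellet alone, examples of disagreeing probes, and MRPS18A, MRPS18B, MRPS18C, MRPL12, MRPS12 and MRPL3. Other genes were chosen after their values were seen. The members and lists were chosen with earlier results of these data known. Symbols are those of the array. The reference table (ARS-UCD2.0) held the accession of 26739 probes and served for an alternative naming only. Whether a probe lies in an exon or untranslated region was not analysed here. The scripts (Python 3.11.15, pandas 2.3.3, limma 3.58.1 for normexp and quantile normalization) were tested on simulated data.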

Additional observations from a re-analysis of the deposited data

How the results depend on the processing

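On the exosome array, 75 members were detected with a floor at 4 times the lowest well-above-background signal, and 68 with every probe required. The weaker flag could not lower this count. The medians kept their sign in all but 3 cases, given here. The number detected in the supernatant (19; MRPL 11, MRPS 8) was 51 (32 and 19) with the weaker flag, 7 (2 and 5) with every probe required, and 3 (1 and 2) with a floor at 4 times the detection limit. Relative to the median gene, the members' median difference (3.44; MRPL 3.50, MRPS 3.00) was 4.54 (4.74 and 4.32) with no filter on dim probes, 2.42 (2.55 and 1.90) with normexp, and 3.98 for MRPL with the brightest probe. Under the strict floor it was -2.59 over 3 genes, 5.30 for the 1 MRPL gene and -3.23 for 2 MRPS genes, since few genes were left. In the settings that follow, the median gene was not subtracted. The members' median difference was 6.95 (7.01 and 6.51) with no scaling and 4.68 (4.74 and 4.24) with spike-in probes. It was 1.38 (1.45 and 0.94) with the 75th percentile, and 0.34 (0.43 and -0.062) with quantile normalization, which gives both arrays 1 distribution. The median exosome level was 10.68 for MRPL and 10.52 for MRPS with the brightest probe, and 10.16 and 10.04 with detected probes only. Brighter in the pellet before scaling were 49 of 51 members with the weaker flag. The other 48 values stayed within the limits set for them. For counts this was a ratio of at most 1.5, which the fall from 18 to 12 with the 75th percentile just met. For medians it was the standard deviation of repeated spots, 0.198 for differences and 0.107 for exosome levels. Updated symbols added 2 members, MRPL57 and MRPL58. Without MRPS28 the relative median was 3.47 over 18 members, an alternative chosen after the data were seen. No paired analysis was possible because each fraction has 1 array. Signals of 18 of 21 supernatant-detected probes lay under 25, near the detection limit.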
